A study of Homo sapiens with 27 samples.

Results

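The data described here are the RNA levels of 60 named genes of the long arm of human chromosome 16 in prostate cancer cells carrying guide RNAs against RIPK2, a kinase that relays signals from the bacterial sensors NOD1 and NOD2. The genes were given as a list of symbols, from CFAP20 to MON1B in chromosome order plus SDR42E1, and were chosen by their RNA levels in DU145 cells carrying RIPK2 gRNA 10, which were described as lower there. The 60 are called the members below, out of 27546 gene symbols listed in the series. The values behind that choice are those of DU145 RIPK2 gRNA 10 against the DU145 control, so every DU145 value is given as a description and supports nothing, and the tests are those in the other 2 lines. Bulk RNA of 27 libraries was counted, 3 in each of 9 groups: for the lines 22Rv1, DU145 and PC3, a wild-type control group with control gRNA 1 and 2 RIPK2-knockout groups. The knockout groups carried RIPK2 gRNA 1 and gRNA 10 in 22Rv1, and RIPK2 gRNA 2 and gRNA 10 in DU145 and in PC3. 22Rv1 came from a xenograft of a prostate tumour, DU145 came from a brain metastasis and PC3 from a bone metastasis. The labels do not say whether the cells of a knockout group descended from a single cell, nor whether the 3 libraries of a group were separate cultures, so the spread between them may be technical.

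Neighbouring genes on a human chromosome mostly serve unrelated functions. The RNA level of such a block can follow its DNA copy number or its chromatin state, while genes under strong individual control depart from their neighbours; neither copy number nor chromatin was analysed here. The long arm of chromosome 16 carries genes known from prostate and breast cancer, among them the cadherins CDH1 and CDH3 and the chromatin insulator CTCF, and loss of parts of this arm is a long-described feature of prostate tumours.

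Library totals ran from 17958558 to 20650819 counts, and all 60 members were listed in each line's table. RIPK2 RNA, the targeted transcript, was at 39.4, 44.4 and 43.5 CPM (counts scaled to library size, where 1 CPM is a millionth of the library) in the DU145 controls, at 9.87, 13.4 and 12.2 CPM with gRNA 2 and at 36.4, 33.4 and 34.4 CPM with gRNA 10. The DU145 gRNA 10 libraries thus lay just under the controls (log2 fold change -0.29, SE 0.11, edgeR adjusted p = 0.0614), whereas gRNA 2 lowered RIPK2 by 1.84 on the log2 scale (edgeR adjusted p = 4.49e-06); an edit need not lower a transcript, so RNA does not check loss of the protein. The epithelial keratins KRT8 and KRT18 were above 100 CPM in every library. Mitochondrial transcripts took 2.46 to 2.77% of the counts in DU145 gRNA 10, 1.75 to 2.89% in DU145 gRNA 2 and 1.26 to 1.32% in the DU145 controls. KRT8 rose with both DU145 guides (log2 fold changes 1.07 and 1.28), and the part of these shifts in the results below was not tested. One 22Rv1 gRNA 1 library, replicate 3, stood apart with 16.6% mitochondrial counts against at most 2.10% in the other 22Rv1 libraries, and DU145 gRNA 2 replicate 3 had the lowest scaling factor of the series.

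In DU145 the members were lower with gRNA 10 as a block. The median member stood at 67.1, 68.2 and 66.9% of the control mean in the 3 gRNA 10 libraries. With gRNA 2 the same median was at 94.1, 88.9 and 97.3%. On the log2 scale the library medians averaged -0.57 ± 0.02 (SD, n = 3) with gRNA 10, -0.10 ± 0.07 (SD, n = 3) with gRNA 2 and 0.00 ± 0.02 (SD, n = 3) in the controls. No gRNA 10 library came near any library of the other 2 groups. In the other lines the library medians averaged -0.01 ± 0.09 and 0.07 ± 0.01 (SD, n = 3 each) with gRNA 1 and gRNA 10 in 22Rv1, and -0.05 ± 0.01 and -0.13 ± 0.01 (SD, n = 3 each) with gRNA 2 and gRNA 10 in PC3. The plot of library medians shows the size of the DU145 gRNA 10 shift beside these.

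**Figure D1:**
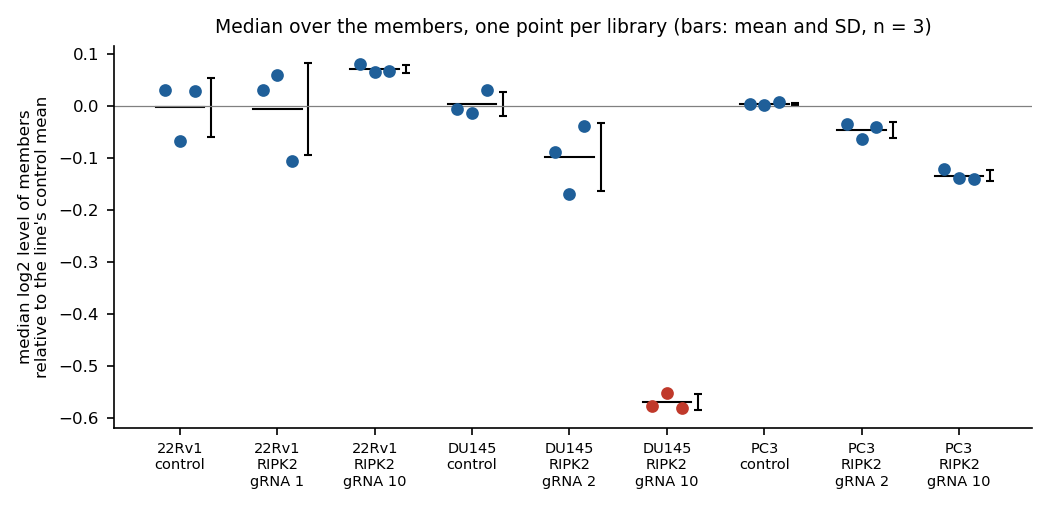
Median over the members tested of the log2 level relative to the line's control mean (vertical axis) for each of the 27 libraries (points), by group (horizontal axis), with the group mean (line) and SD (bar, n = 3). The 3 DU145 gRNA 10 libraries lie between -0.58 and -0.55 and all other libraries between -0.17 and 0.08.

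Of the 59 members with enough counts in DU145 (CKLF, a chemotactic factor, was too low), 48 were called lower and 1 higher with gRNA 10, where called means an edgeR adjusted p below 0.05. Over all 14908 genes tested, 19.8% were called lower and 20.2% higher. The median log2 fold change was -0.57, that is 67.2% of control, with quartiles of -0.73 and -0.39; it is the same with SDR42E1 set at its bound. All 3 gRNA 10 libraries lay below all 3 controls for 56 members, against 34.3% of all genes tested. The 10 members not called were CSNK2A2, GOT2, DYNC1LI2, ACD, NUTF2, PSMB10, PLA2G15, PRMT7, NFAT5 and GLG1, with log2 fold changes from -0.50 to 0.06.

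The spread of the reductions is given as a description only, since members chosen as lower have a spread that the choice itself narrows. The interquartile range of the members' log2 fold changes was 0.35, against 0.64 over all genes tested and 0.67 over the other tested genes between CFAP20 and MON1B, which were not chosen. Of the 59 members, 38 (64.4%) lay within 0.25 of the members' median, and 41.1% of all genes lay within 0.25 of theirs. The typical standard error of a single member was 0.11, smaller than the robust SD between members of 0.27, so the members differed among themselves by more than the fit's error. Among the 29 members with the higher mean CPM the interquartile range was 0.27 and 75.9% lay within 0.25 of their own median. For the 30 with lower CPM these were 0.43 and 60.0%.

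Promoters are shown for 4 members: GLG1 and GOT2, which kept the control level, DHX38, near the median, and SLC7A6, one of the largest reductions. The extreme members SDR42E1, CDH3 and CES3 had no promoter entry and could not be shown. The 250 bases before the RefSeq start are printed 5′ to 3′ on the gene's strand (build GRCh38.p14), with the GC box GGGCGG, the motif bound by SP1, and its reverse complement CCGCCC in capitals.
GLG1 (chr16:74607115-74607364, minus strand): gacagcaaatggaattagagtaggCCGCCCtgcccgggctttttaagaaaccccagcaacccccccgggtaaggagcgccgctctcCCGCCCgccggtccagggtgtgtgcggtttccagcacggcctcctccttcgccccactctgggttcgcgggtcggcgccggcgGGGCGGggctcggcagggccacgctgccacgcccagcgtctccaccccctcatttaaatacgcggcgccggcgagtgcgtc
GOT2 (chr16:58734317-58734566, minus strand): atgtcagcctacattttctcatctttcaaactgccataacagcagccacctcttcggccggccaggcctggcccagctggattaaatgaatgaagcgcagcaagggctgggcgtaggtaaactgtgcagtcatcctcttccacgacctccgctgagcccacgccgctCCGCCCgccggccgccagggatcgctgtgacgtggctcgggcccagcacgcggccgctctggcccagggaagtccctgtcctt
DHX38 (chr16:72093597-72093846, plus strand): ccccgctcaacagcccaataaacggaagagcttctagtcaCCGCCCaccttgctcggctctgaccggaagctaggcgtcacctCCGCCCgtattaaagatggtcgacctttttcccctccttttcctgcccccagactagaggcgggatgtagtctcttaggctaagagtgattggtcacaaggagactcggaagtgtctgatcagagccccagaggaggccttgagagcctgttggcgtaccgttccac
SLC7A6 (chr16:68264276-68264525, plus strand): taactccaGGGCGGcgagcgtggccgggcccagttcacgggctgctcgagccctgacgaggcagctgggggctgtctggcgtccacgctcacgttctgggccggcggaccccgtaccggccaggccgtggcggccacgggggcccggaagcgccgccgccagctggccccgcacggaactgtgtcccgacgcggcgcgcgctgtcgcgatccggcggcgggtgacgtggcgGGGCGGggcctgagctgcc
GLG1 held 3 GC boxes, GOT2 1, DHX38 2 and SLC7A6 2. Members without a GC box included COG8, TK2 and DDX28, which were called lower, and PSMB10, which was not called. A relation of the motif to the change was not tested. RefSeq gave a promoter for 52 of the 60 members, and 37 of these (71.2%) held a GC box on either strand, against 41.6% of 27305 promoters of the same length. The median GC content was 65.0% in the members' promoters and 57.6% in all promoters. All promoters include those of genes not expressed in these cells, whereas all members but CKLF had enough counts in DU145. The 2 sets are therefore unlike, and the difference cannot be read as a trait of the members. A match describes the letters only and does not show that a factor binds there.

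The members that keep chromosomes intact were lower by a similar amount. The median of this group was -0.43, with 6 of 7 called lower. Over all roles 48 of 59 members were called lower, beside 19.8% of all genes tested. Since the members were chosen as lower, the counts by role here and below only describe that choice. CHTF8, a subunit of the alternative clamp loader used in sister chromatid cohesion, was at 264, 261 and 267 CPM in the controls, 266, 244 and 193 CPM with gRNA 2 and 196, 208 and 204 CPM with gRNA 10. Its gRNA 10 libraries were all below the controls, and the gRNA 2 libraries overlapped both groups. RFWD3, a ubiquitin ligase acting at stalled replication forks, was at 208, 209 and 205 CPM in the controls, 174, 184 and 214 CPM with gRNA 2 and 140, 133 and 138 CPM with gRNA 10. Here gRNA 10 left 66.0% of control (log2 fold change -0.60, SE 0.09), below every other library of the line. Of the 3 shelterin members, which cap telomeres, TERF2 changed by -0.33 and TERF2IP by -0.55, while ACD, at -0.43 (SE 0.17), was not called. CTCF changed by -0.35 and CENPT, which links the centromere to the kinetochore, by -0.67.

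Among the 6 transcription regulators 5 were called lower, with a median of -0.60. E2F4, an E2F family member best known as a repressor in resting cells, was at 140, 135 and 156 CPM in the controls, 168, 135 and 196 CPM with gRNA 2 and 80.6, 99.5 and 92.9 CPM with gRNA 10. CBFB, the partner that stabilises RUNX proteins on DNA, was at 96.5, 96.8 and 99.4 CPM in the controls, 73.9, 77.3 and 112 CPM with gRNA 2 and 65.8, 61.6 and 62.3 CPM with gRNA 10. For both genes the gRNA 10 libraries were the lowest of the line, while the gRNA 2 libraries spread to both sides of the controls or over them. NFATC3 and THAP11 had log2 fold changes of -0.58 each, the zinc finger gene ZFP90 one of -0.74, and NFAT5, the regulator of the response to osmotic stress, one of -0.43 (SE 0.16) that was not called.

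All 6 RNA processing members were called lower, with a median of -0.62. SF3B3, a core subunit of the SF3b complex that recognises the branch point, had the highest level of any member: 549, 525 and 555 CPM in the controls, 545, 528 and 579 CPM with gRNA 2 and 315, 326 and 308 CPM with gRNA 10. The gRNA 10 libraries held 58.3% of the control level (log2 fold change -0.78, SE 0.08), and gRNA 2 held 101%. DHX38, a helicase of the second splicing step, was at 176, 168 and 183 CPM in the controls, 163, 149 and 177 CPM with gRNA 2 and 112, 120 and 117 CPM with gRNA 10. For both genes the gRNA 10 libraries lay below the gRNA 2 libraries as well as below the controls. The mitochondrial helicase DDX28 was the furthest reduced of the group (-0.98), and the decapping scaffold EDC4 the least (-0.36).

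Of the 3 proteasome and ubiquitin members, 2 were called lower. PSMD7, a lid subunit of the proteasome, was at 166, 163 and 165 CPM in the controls, 163, 163 and 158 CPM with gRNA 2 and 141, 127 and 131 CPM with gRNA 10. Its reduction of 0.31 was one of the smaller ones, yet no gRNA 10 library overlapped the others. WWP2, a NEDD4-family ubiquitin ligase, was at 93.7, 90.8 and 98.4 CPM in the controls, 84.9, 81.3 and 91.3 CPM with gRNA 2 and 65.9, 71.9 and 70.3 CPM with gRNA 10. The immunoproteasome subunit PSMB10 was near 1 CPM in all groups and was not called (log2 fold change -0.50, SE 0.35).

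**Figure D2:**
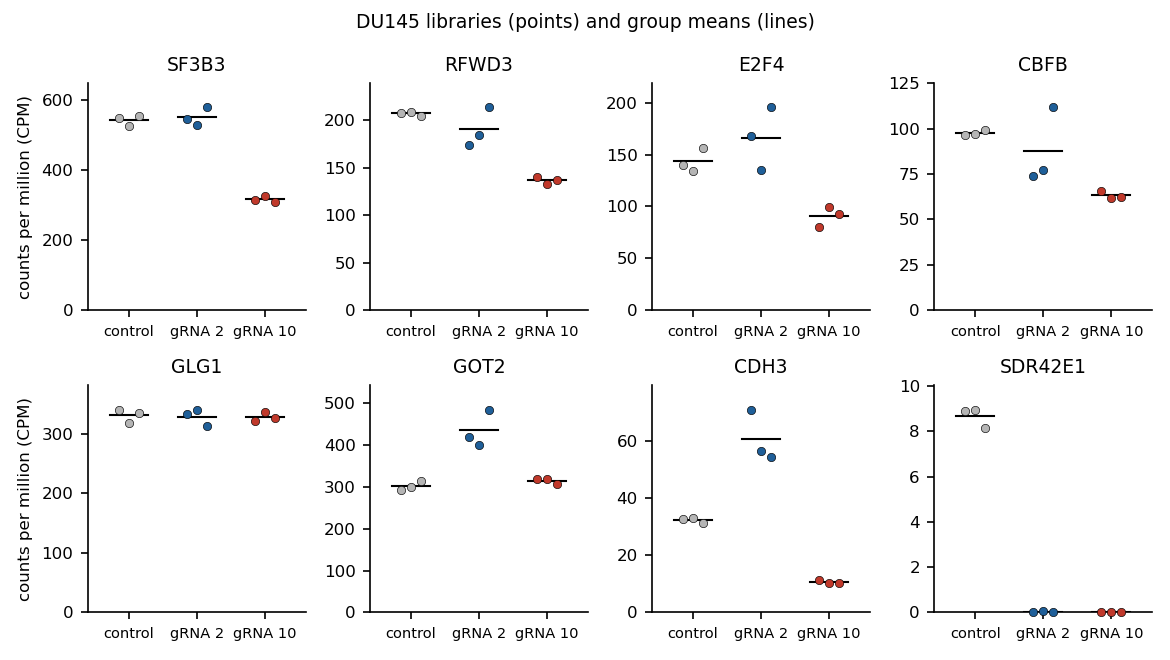
Levels in CPM (vertical axes, from 0) of 8 members in the 9 DU145 libraries (points) by group (horizontal axes: control, gRNA 2, gRNA 10), with group means (lines). SF3B3, RFWD3, E2F4 and CBFB are lowest with gRNA 10, GLG1 and GOT2 are not, CDH3 moves in opposite directions with the 2 guides, and SDR42E1 is near 0 with both.

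The 12 membrane trafficking members had a median of -0.51, and 10 were called lower. AP1G1, the gamma subunit of the clathrin adaptor AP-1, was at 256, 249 and 240 CPM in the controls, 212, 246 and 185 CPM with gRNA 2 and 199, 180 and 190 CPM with gRNA 10. GLG1, a Golgi membrane glycoprotein, was at 339, 318 and 334 CPM in the controls, 332, 340 and 313 CPM with gRNA 2 and 322, 336 and 326 CPM with gRNA 10. GLG1 was therefore level across the line (log2 fold change -0.01, SE 0.07, with gRNA 10), although its next member on the chromosome, RFWD3, fell by 0.60. The 2 subunits of the oligomeric Golgi complex differed: COG8 went from 27.5 ± 0.73 to 11.7 ± 0.92 CPM and COG4 from 91.2 ± 2.0 to 73.5 ± 3.4 CPM (SD, n = 3 each). COG8 overlaps VPS4A, the ATPase of the ESCRT machinery, on the opposite strand, and VPS4A changed by -0.56. The V-ATPase subunit ATP6V0D1 (-0.75), the PIKfyve scaffold VAC14 (-0.62) and the RAB7 activator subunit MON1B (-0.56) lay nearer the common shift, while ESCRT-III-associated IST1 (-0.39) and dynein light intermediate chain DYNC1LI2 (-0.26) moved less.

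The group of metabolic and mitochondrial members, in which NUTF2 was also counted, was the most uneven. Its interquartile range was 0.83 around a median of -0.66. Of 9, 5 were called lower and 1 higher. GOT2, the mitochondrial aspartate aminotransferase, was at 292, 299 and 315 CPM in the controls, 421, 400 and 485 CPM with gRNA 2 and 319, 319 and 306 CPM with gRNA 10. It was at the control level with gRNA 10 (104%) and above it with gRNA 2 (144%). NUTF2, which carries the GTPase Ran into the nucleus, was at 236, 256 and 260 CPM in the controls, 275, 233 and 359 CPM with gRNA 2 and 190, 203 and 196 CPM with gRNA 10, so that its gRNA 10 libraries were lowest although the gene was not called. SLC7A6, an amino acid transporter, went from 132 ± 2.1 to 56.8 ± 0.54 CPM, and the mitochondrial thymidine kinase TK2 from 32.9 ± 0.19 to 15.6 ± 1.1 CPM (SD, n = 3 each). DHODH, the mitochondrial enzyme of pyrimidine synthesis, changed by -0.73.

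CES3 and SDR42E1 stood outside the common range. CES3, a carboxylesterase, was at 7.11, 6.66 and 7.22 CPM in the controls, 12.4, 13.9 and 6.47 CPM with gRNA 2 and 12.9, 13.7 and 14.3 CPM with gRNA 10. It was the only member called higher with gRNA 10, at 195% of control, without overlap of those 2 groups. SDR42E1, a short-chain dehydrogenase, had 167 to 187 counts in the controls (8.88, 8.97 and 8.15 CPM), 0 counts in all 3 gRNA 10 libraries and at most 1 count with gRNA 2. With a floor of 3 counts per library, gRNA 10 put it at least 57.7-fold lower and gRNA 2 put it at least 56.4-fold lower than the controls. SDR42E1 lies 4.79 Mb beyond MON1B, and both guides left it at the floor, so it did not follow the pattern of the other members.

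In the signalling, adhesion and cytoskeleton group 14 of 16 tested members were called lower, with a median of -0.62. BCAR1, the adhesion scaffold p130Cas, was at 172, 166 and 194 CPM in the controls, 164, 116 and 202 CPM with gRNA 2 and 84.6, 108 and 104 CPM with gRNA 10. CMTM4, a tetraspanning membrane protein, was at 159, 163 and 157 CPM in the controls, 161, 187 and 132 CPM with gRNA 2 and 107, 106 and 109 CPM with gRNA 10. The gRNA 10 libraries of both lay below all others, and those of gRNA 2 scattered around the control level. TRADD, the adaptor of TNF receptor 1, changed by -0.85, the formin FHOD1 by -1.07 and the kinase subunit CSNK2A2 by -0.26, the last not called.

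Among the members inside the interval from CFAP20 to MON1B, CDH3 and NOL3 were reduced most. CDH3, P-cadherin, was at 32.6, 32.9 and 31.3 CPM in the controls, 70.9, 56.4 and 54.4 CPM with gRNA 2 and 11.2, 10.4 and 10.1 CPM with gRNA 10. With gRNA 10 it stood at 32.8% of control and with gRNA 2 at 188%, with no overlap among the 3 groups. NOL3, an apoptosis repressor with a CARD domain, was at 38.5, 39.8 and 38.8 CPM in the controls, 36.9, 22.1 and 33.3 CPM with gRNA 2 and 15.9, 15.3 and 14.1 CPM with gRNA 10. ELMO3, a partner of DOCK proteins in RAC activation, behaved like CDH3: 8.93 ± 0.23 CPM in the controls, 18.6 ± 2.7 CPM with gRNA 2 and 4.26 ± 0.35 CPM with gRNA 10 (SD, n = 3 each).

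The 2 DU145 knockout groups share their controls, so their values are set side by side. With gRNA 2, 9 members were called lower and 5 higher, beside 17% and 17.1% of all genes tested, and the median log2 fold change was -0.11. Those lower were SDR42E1, SLC7A6, ZFP90, PLA2G15, NFATC3, TANGO6, RANBP10, ATP6V0D1 and MON1B, and those higher CSNK2A2, CFAP20, GOT2, CDH3 and ELMO3. The number lower was 20 without gRNA 2 replicate 3, 3 without control replicate 1 or control replicate 2 and 2 without control replicate 3. The number higher was 9 without gRNA 2 replicate 2, and 3 without gRNA 10 replicate 3 or without any 1 of the controls. Calls over all genes were not counted in these fits. Taken directly against gRNA 2, gRNA 10 libraries had 41 members called lower and 0 higher (19.2% and 19.6% of all genes), with a median of -0.47, and 42 members without overlap (23.2% of all genes). At an unadjusted edgeR p below 0.05, 0 members were higher and 44 lower, and DESeq2 called 0 higher and 41 lower. CDH3 (-2.52), ELMO3 (-2.12) and COG8 (-1.14) differed most among the members called between the guides.

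**Figure D3:**
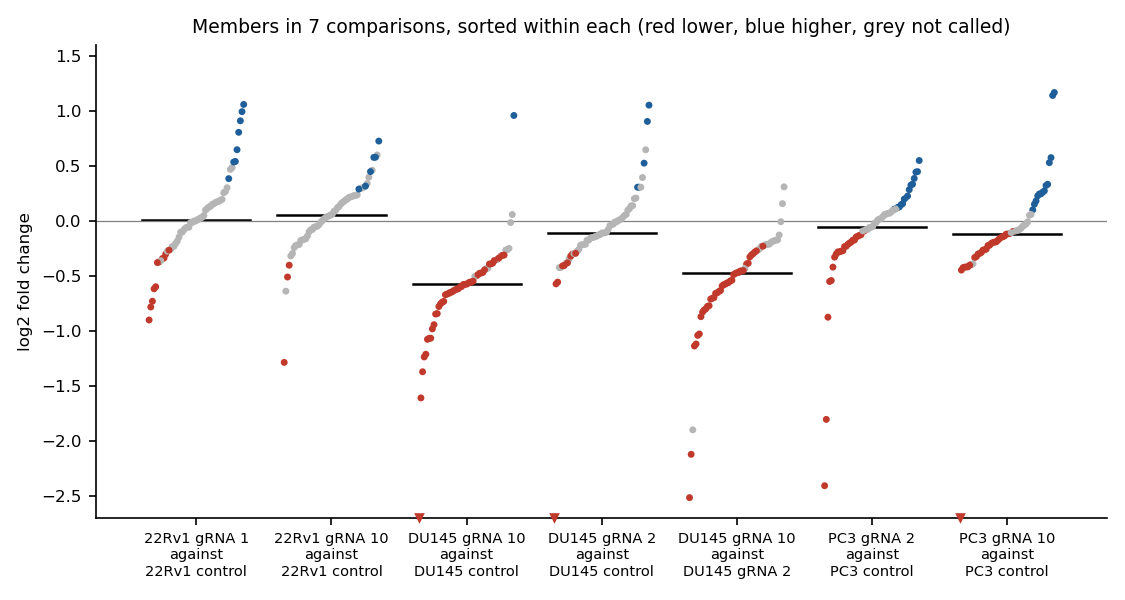
Log2 fold changes (vertical axis) of the members tested in 7 comparisons (horizontal axis), sorted from lowest to highest within each, with the median (line); red marks members called lower, blue called higher (edgeR adjusted p below 0.05) and grey not called. Triangles at the lower edge are SDR42E1 in DU145 and CES3 in PC3 gRNA 10, which lie beyond the axis; the medians are -0.57 for DU145 gRNA 10 against control and between -0.12 and 0.06 for the comparisons of other guides or lines with their controls.

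The low stretch was not limited to the interval from CFAP20 to MON1B (58113588 to 77202405 of chromosome 16, GRCh38), which holds 59 of the members. The 88 other genes of the interval that were tested in DU145 had a median of -0.51 with gRNA 10. Of these, 56 were called lower and 5 higher, beside 19.8% and 20.2% of all genes tested. With gRNA 2 their median was -0.15 and 23 were called lower, beside 17% of all genes tested. Between the guides their median was -0.46. The furthest reduced with gRNA 10 were the haptoglobin gene HP (10.6 to 0.268 CPM), PLEKHG4 (119 to 18.5 CPM) and the antisense transcript VAC14-AS1 (log2 fold change -2.29). CALB2, encoding calretinin (0.467 to 7.25 CPM), HYDIN (0.0965 to 0.835 CPM) and RRAD (1.08 to 3.19 CPM) went the other way. Some of these changes were also seen with gRNA 2: HP was at 0.712 CPM (edgeR adjusted p = 0.0028 against control and 0.349 between the guides), and RRAD at 10.7 CPM, above its gRNA 10 level. CDH1, E-cadherin, next to CDH3, changed by -0.43 with gRNA 10 and by 0.48 with gRNA 2 and was called in neither against the control. Between the guides CDH1 was called lower with gRNA 10 (log2 fold change -0.92, SE 0.25, edgeR adjusted p = 0.0136).

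Outside the interval the short arm was lower too. The 356 tested genes of 16p had a median log2 fold change of -0.40 with gRNA 10, and 49.7% were called lower. The 66 long-arm genes before CFAP20 had a median of -0.15 (36.4% lower), and the 86 after MON1B one of -0.43 (59.3% lower). Over chromosome 16 as a whole the median was -0.43 with 54.3% called lower, against 0.02 with 18.2% on all other chromosomes. In 22 consecutive runs of tested genes, 30 to a run but for the last, the median with gRNA 10 was negative in 21. With gRNA 2 it was negative in 20, with run medians from -0.30 to 0.21. With gRNA 10 the 6 runs holding members had medians from -0.65 to -0.35, inside the range of all runs (-0.75 to 0.04). The label of a long-arm block thus covers only a portion of the lowered genes.

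The edges of the interval were uneven. The 3 tested genes before CFAP20, namely ZNF319, USB1 and MMP15, had log2 fold changes of 0.16, 0.14 and 0.15 with gRNA 10. Just inside, CFAP20, a ciliary protein gene, changed by -0.47, CSNK2A2 by -0.26 and CCDC113 by -0.04. At the other end KARS1 changed by -0.28, TERF2IP by -0.55 and MON1B by -0.56 inside, and NUDT7 by 1.00 and WWOX, a tumour suppressor at a fragile site, by -0.60 beyond. SYCE1L, which starts within MON1B, changed by -0.24. At the CFAP20 end the 3 genes outside thus lay above 0 and those named inside below it. At the MON1B end the genes beyond went both ways. A step at either end was not tested.

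**Figure D4:**
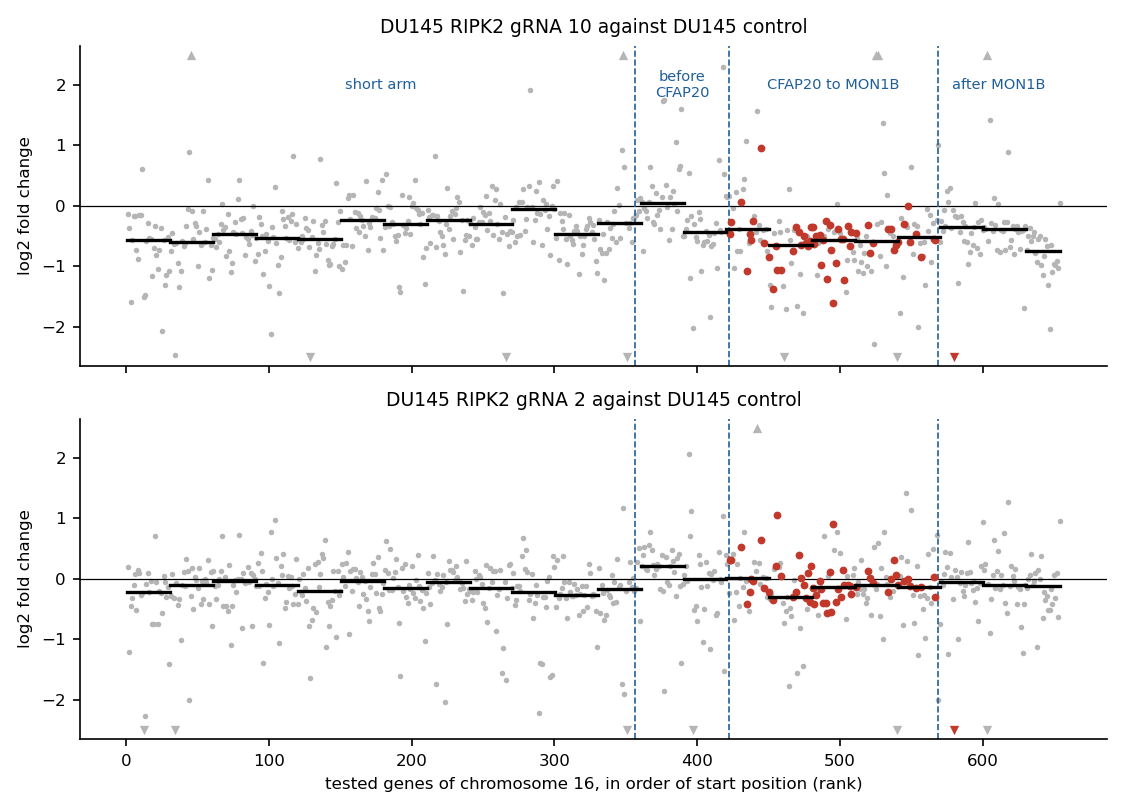
Log2 fold change (vertical axis) of the 654 tested genes of chromosome 16 in DU145, in order of start position (horizontal axis, rank), with gRNA 10 (upper panel) and gRNA 2 (lower panel) against the control; red points are members, grey points other genes, black lines medians of runs of 30 neighbouring genes, dashed lines the bounds of the segments, and triangles genes beyond the axis. With gRNA 10 the run medians lie between -0.75 and 0.04, with gRNA 2 between -0.30 and 0.21.

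Chromosome 16 had the lowest median of the 23 chromosomes with gRNA 10 in DU145. Chromosome 21 followed at -0.32 and chromosome 7 at -0.23, and chromosome 20 was highest at 0.33. With gRNA 2 chromosome 16 was at -0.11, the 3rd lowest of the 23, close to the lowest, chromosome 3 at -0.12, and 19.6% of its tested genes were called lower and 7.49% higher. Medians away from 0 were thus also seen on other chromosomes in the same libraries.

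**Figure D5:**
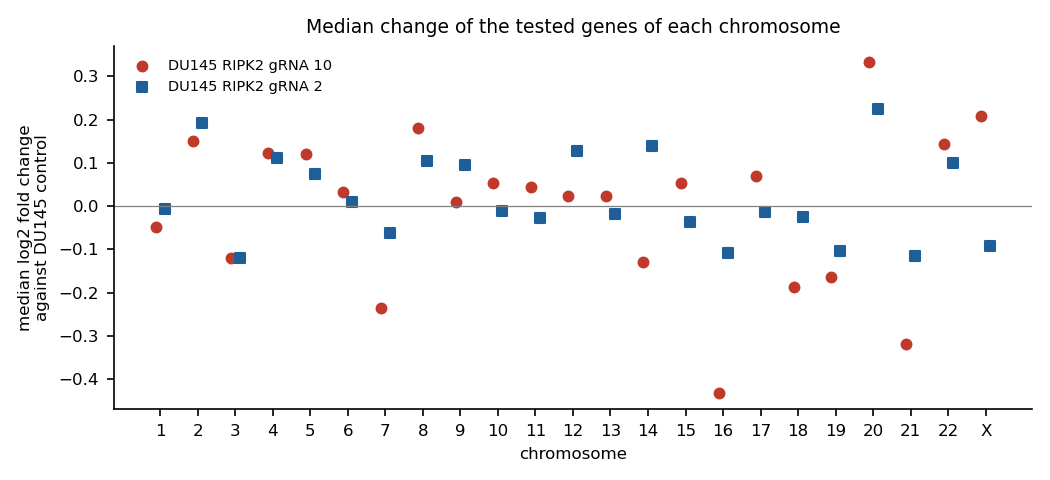
Median log2 fold change against the DU145 control (vertical axis) of the tested genes of each chromosome (horizontal axis), for gRNA 10 (red circles) and gRNA 2 (blue squares). Chromosome 16 lies at -0.43 with gRNA 10 and at -0.11 with gRNA 2.

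The 22Rv1 and PC3 libraries were not used to choose the members, and there they showed no common shift of that size. In 22Rv1, gRNA 10 left the members at a median of 0.06, with 3 called lower and 6 higher of 58 tested (20.6% and 20% of all 15198 genes). RANBP10, a RAN-binding protein, rose from 42.3 ± 3.4 to 70.2 ± 1.1 CPM (SD, n = 3 each, edgeR adjusted p = 0.000384), COG8 by 0.58 (edgeR adjusted p = 0.00596) and PLA2G15, a lysosomal phospholipase, by 0.58. SDR42E1 fell from 8.23 ± 0.57 to 3.37 ± 0.51 CPM (edgeR adjusted p = 7.67e-05) and THAP11 by 0.51 (edgeR adjusted p = 0.00252). Leaving out 22Rv1 gRNA 1 replicate 3, the library rich in mitochondrial counts, gave 10 lower and 20 higher. Calls over all genes were not counted in that fit, so whether they rose as well is not known here. With gRNA 1 the median was 0.01, with 11 lower and 8 higher (22.9% and 25.6% of all genes); the number higher was 5 without control replicate 2. ACD (1.06, edgeR adjusted p = 0.000755) and ELMO3 (1.00, edgeR adjusted p = 0.00544) rose most, and CDH3 (-0.90, edgeR adjusted p = 5.48e-05) and NFAT5 (-0.78, edgeR adjusted p = 0.000337) fell most.

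In PC3, where the largest shares of all genes were called, members moved both ways. With gRNA 2, 24 members were called lower and 14 higher of 58 (31.5% and 32.1% of all 14718 genes), with a median of -0.05. With gRNA 10 the counts were 30 and 14 (35.6% and 37.9% of all genes), with a median of -0.12. CDH3 was at 13.8, 13.4 and 14.1 CPM in the controls, 2.32, 2.22 and 3.21 CPM with gRNA 2 and 29.8 to 31.4 CPM with gRNA 10. The fall with gRNA 2 had a log2 fold change of -2.41 (edgeR adjusted p = 7.87e-18), and the rise with gRNA 10 one of 1.14 (edgeR adjusted p = 2.78e-15), the reverse of the order seen in DU145. CES3 fell with both guides, from 8.79, 7.66 and 8.94 CPM to 2.46, 2.46 and 2.32 CPM with gRNA 2 and to 1.16, 0.674 and 0.913 CPM with gRNA 10. FHOD1 rose with both, from 56.5 ± 1.1 to 77.3 ± 0.70 and 127 ± 2.1 CPM (SD, n = 3 each, edgeR adjusted p = 9.44e-11 and 1.83e-21).

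The members' position on chromosome 16 could be set beside the rest of the chromosome in PC3 as well. With gRNA 10 the 362 tested genes of 16p had a median of 0.47 and 76.5% were called higher, while the members, on the other arm, had a median of -0.12. With gRNA 2 the 16p median was 0.00 and the members' -0.05. The long arm was not uniform in PC3 gRNA 10: the genes before CFAP20 had a median of 0.12, the other genes of the interval one of -0.06 and the genes after MON1B one of -0.13.

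Genes whose products work with the members but are mostly encoded elsewhere did not share the shift. Of 99 tested partners and close relatives in DU145 gRNA 10, 19 were called lower and 19 higher, with a median of -0.01. The shares over all genes tested were 19.8% lower and 20.2% higher. The 95 on other chromosomes had a median of 0.00 (16 lower, 19 higher), and the 4 on chromosome 16 one of -0.46 (3 lower). The 6 tested SF3b partners of SF3B3 had a median of 0.06, with SF3B6 called higher (0.93), and the 16 proteasome partners of PSMD7 one of 0.08, with PSMD12 higher (0.59). RUNX1 and RUNX3, the DNA-binding partners of CBFB, changed by -0.39 and -0.41. The relatives NFATC1 (-1.41), CYB5A (-1.06), NFATC4 (-0.96) and CMTM7 (-0.77) were the furthest reduced, and NEDD9 (3.26), a relative of BCAR1, and DCP1B (0.70), a decapping partner of EDC4, were among the furthest increased. The number higher was 10 without control replicate 1, 12 without control replicate 2 and 11 without gRNA 10 replicate 1, and the number lower 12 without gRNA 10 replicate 3.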

How the data were processed

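The authors deposited raw counts per gene symbol, 1 table per line with a column per library, per the file headers. Per the labels' protocols, strand-specific mRNA libraries were read as paired ends by DNBSEQ. STAR, FastQC, edgeR and hg38 are named in the submitters' processing notes without role; the counting program, annotation and use of strand are not given in the sources used here, and 33 members overlap another gene, 11 on the same strand, so their counts are less certain.

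Per line, 1 fit over its 9 libraries was made in edgeR 4.0.16 (R 4.3.3), with group as the only term (filterByExpr, minimum count 10, minimum total 15; TMM; robust quasi-likelihood F test, two-sided; Benjamini-Hochberg over all genes of a contrast; threshold 0.05). Scripts were tested on simulated data. Positions came from GENCODE 29 (GRCh38), and segments were set beside whole chromosomes rather than chromosome arms. CPM use TMM-scaled library sizes. Floors of 3 counts cover counting error only.

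Members and gene lists were chosen with earlier results of these data known. Libraries are given for the 2 members of each role with the highest control CPM, for SDR42E1 and for the 3 lowest and 3 highest members; other genes by extremes, edges and up to 4 partners per direction. Alternatives were RLE factors, DESeq2 1.42.0, other filters, only the groups compared, a replicate block and leaving out each library.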

Additional observations from a re-analysis of the deposited data

Results flagged for a closer look

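For 32 of the 59 members tested in DU145, all gRNA 10 libraries of another line moved opposite to all DU145 gRNA 10 libraries, each relative to its own controls; the differences were not tested. This is 54.2% of these members, beside 40.3% of all 14908 genes, and the members were chosen by the DU145 side of the comparison. The reversal was in both other lines for 5 members, in 22Rv1 alone for 17 and in PC3 alone for 10. CES3 was the member higher in DU145, with log2 fold changes of -0.64 in 22Rv1 and -3.20 in PC3. The other 31 were lower in DU145.

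Against the reductions in DU145, RFWD3 had a log2 fold change of 0.22 in 22Rv1 and 0.25 in PC3, WWP2 one of 0.32 in 22Rv1 and 0.10 in PC3, NOL3 one of 0.31 in 22Rv1 and 0.32 in PC3, and FHOD1 one of 0.40 in 22Rv1 and 1.17 in PC3. In PC3 alone the furthest were CDH3 (1.14), TRADD (0.58) and ENKD1 (0.53), followed by CBFB (0.34), TK2 (0.28), DDX28 (0.26), TERF2IP (0.25), COG4 (0.23), TERF2 (0.18) and BCAR1 (0.15). In 22Rv1 alone the furthest were RANBP10 (0.73), CENPT (0.60), COG8 (0.58) and PLA2G15 (0.58). ACD (0.46), IST1 (0.45), ELMO3 (0.34), CMTM4 (0.30), PSKH1 (0.30) and DHX38 (0.29) lay in the middle of that range in 22Rv1. The smallest values in 22Rv1 were those of EDC4 (0.24), TXNL4B (0.23), VAC14 (0.23), CFAP20 (0.23), ATP6V0D1 (0.20), SLC7A6 (0.19) and CTCF (0.15).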

How the results depend on the processing

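Of 435 comparisons of 29 summary values with alternatives, 383 stayed within a set margin and 52 did not. The margin was 1.5 times for counts and, for medians, the SD of the members' library medians in the knockout group tested. The same SD served for the other interval genes, whose library medians were further apart (-0.60, -0.47 and -0.52 with DU145 gRNA 10). With DU145 gRNA 10 against control, 44 of 49 member calls held under each alternative that tested them (SDR42E1 was not tested where genes needed 10 counts in each library); AP1G1, CHTF8, EDC4, PSKH1 and VPS4A lost theirs under at least 1. The cause was not tested for the changes that follow, and the shares of all genes called under the alternatives were not counted.

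With only the groups compared, 22Rv1 gRNA 1 had 5 members higher and 5 lower, 22Rv1 gRNA 10 had 17 higher and 10 lower with a median of 0.0716, DU145 gRNA 2 had 3 higher and 3 lower and 12 other interval genes lower, and DU145 gRNA 10 had 31 partners higher and 36 lower. Without a filter the members' median was 0.0418 in 22Rv1 gRNA 10 and -0.51 between the DU145 guides, and that of the other interval genes -0.49 in DU145 gRNA 10. Where genes needed 10 counts in each library, the other interval genes had medians of -0.56 in DU145 gRNA 10 and -0.48 between the guides.

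Leaving out 1 library gave these ranges. In 22Rv1 the members higher ran from 5 to 12 and lower from 8 to 16 with gRNA 1, and with gRNA 10 from 4 to 20 and 2 to 10, with a median from 0.0467 to 0.0919. In DU145 gRNA 10 the members lower ran from 44 to 54 and the median from -0.58 to -0.56; for the other interval genes the median ran from -0.56 to -0.50, and for partners the number higher from 10 to 28 and lower from 12 to 28. In DU145 gRNA 2 the members higher ran from 3 to 9 and lower from 2 to 20, and the other interval genes lower from 13 to 34. Between the DU145 guides the medians ran from -0.53 to -0.42 for members and from -0.49 to -0.42 for the other interval genes. In PC3 the members' median ran from -0.0615 to -0.0335 with gRNA 2 and from -0.14 to -0.11 with gRNA 10. Log2 fold changes near 0 turned sign: GLG1 and CCDC113 in DU145 gRNA 10 ran from -0.0402 to 0.0052 and from -0.0826 to 0.0051, and SF3B3 in DU145 gRNA 2 from -0.0136 to 0.0539.

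To look for pairing, libraries of different groups were matched by the last digit of their titles. Deviations of matched libraries correlated between -0.08 and 0.34 in 22Rv1, -0.19 and 0.07 in DU145 and -0.05 and 0.06 in PC3. Library names run differently from titles in 22Rv1 gRNA 1, DU145 gRNA 2, PC3 gRNA 2 and the PC3 controls. Matching by library name was not tested, so these values do not decide whether libraries were paired. With the title digit as a block, DU145 gRNA 10 had 48 members lower and a median of -0.57, and DU145 gRNA 2 had 7 lower and 4 higher.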
